A study of Homo sapiens with 5 samples.

Results

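The unfolded protein response (UPR) and the integrated stress response were followed in NCI-H209, an established cell line from a human small cell lung cancer (SCLC), through 39 genes of these pathways. The genes were given as a fixed list, matched by symbol to the deposited gene table and joined by gene identifier to the count of each library, and 36 of the 39 were abundant enough to be tested among 20360 genes. There were 3 control libraries, from untreated cells, and 2 from cells conditioned for 24 h by human brain microvascular endothelial cells (HBMECs) across a Transwell membrane, with the tumor cells in the lower well. Both groups were the same cell line in RPMI-1640 with fetal bovine serum, no genetic change is named, and the HBMECs had been grown with an additional serum supplement. Whether the control wells carried an empty insert is not given in the sources used here, and the labels do not say whether libraries of a group came from cultures set up independently, so the p-values measure the spread between these libraries, which may be technical.

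Proteins that enter the endoplasmic reticulum (ER) are folded there, and an excess of unfolded protein is sensed by PERK (EIF2AK3), IRE1 (ERN1) and ATF6 in the ER membrane. PERK, like the amino acid sensor GCN2 (EIF2AK4) in the cytosol, phosphorylates the initiation factor eIF2, which slows translation in general while the mRNA of the transcription factor ATF4 is translated more. IRE1 splices the mRNA of XBP1 into the form that encodes an active factor, and ATF6 is cut in the Golgi to release its own. ATF4 drives genes of amino acid supply, redox balance and cell death, while ATF6 and XBP1 share many targets among the chaperones of the ER and the machinery that returns misfolded proteins to the cytosol for degradation (ERAD). SCLC cells are of neuroendocrine character and can secrete peptide hormones, which are made through the ER. Counts per gene show the amount of an mRNA, and not the splicing of XBP1, the translation of ATF4 or the cleavage of ATF6.

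The libraries held 15457071 to 19157348 counts on genes, on the strand expected for the directional kit, and 92.3% to 93.1% of the reads assigned by strand fell there. The share of reads left unmapped was 8.13% to 8.48% in control and 15.9% to 16.8% after co-culture. Control replicate 1 stood apart from the other control libraries, since its counts gave 17.4 and 17.7 times the chi-square that sampling noise alone gives when set against them, while control replicates 2 and 3 gave 6.26 and the co-cultured pair 4.41. Of 11 tested neuroendocrine markers listed for the cell line, 4 (36.4%) were higher and 2 (18.2%) lower in co-cultured cells, with log2 ratios from -1.12 to 0.86. Among protein-coding genes with a mean of at least 10 CPM the shares were 28.2% and 17.8%. INSM1, which was not called, had 498 to 636 CPM in control and 561.7 and 568 CPM in co-cultured libraries. Of 15 endothelial markers, 8 could be tested and 1 was higher in co-cultured cells, ESAM, at 21 and 14 counts against 3 to 6. The summed level of the endothelial list was 9.57 to 19.4 CPM in control and 13.01 and 13.08 CPM in co-cultured libraries, CDH5 had 4 to 11 counts in every library, and PLVAP and MMRN1 were at 0 in all 5.

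Most of the members were more abundant in co-cultured cells. At an adjusted p under 0.05, 21 of the 36 tested members were higher, where 18.4% of all genes tested were, and 3 were lower, where 15% of all genes were. Among protein-coding genes with a mean of at least 10 CPM, 28.2% were higher and 17.8% lower. The median log2 ratio of co-cultured to control level (log2FC, given with its standard error, SE) was 0.43 over the members. It was -0.03 over all genes tested and 0.07 over protein-coding genes with a mean of at least 10 CPM. A positive value was found for 31 of the 36 members. By the study's criterion for a differentially expressed gene (DEG), read as a log2FC beyond 1 in size at a p below 0.05 before adjustment, 7 members were upregulated, against 5.44% of all genes, and 0 were downregulated, against 5.01%. For 29 members both co-cultured libraries lay above all control libraries, against 29.4% of all genes, and for 4 both lay below, against 30%. In such bulk samples a change in the RNA of every cell and a change in a part of the cells cannot be told apart.

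**Figure D1:**
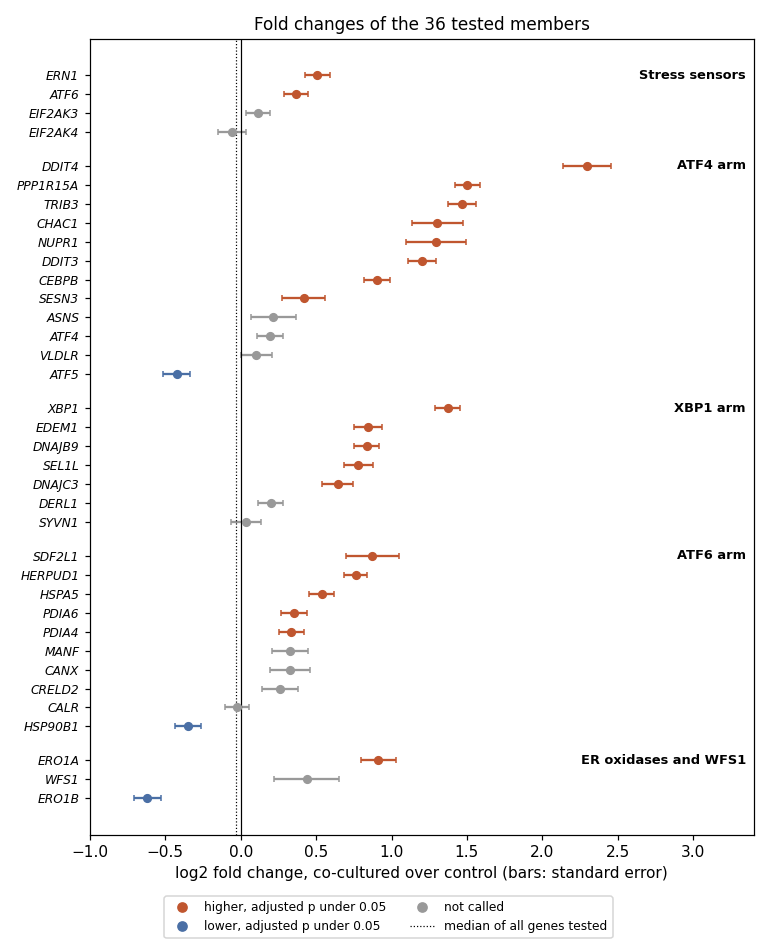
Log2FC of co-cultured over control cells (horizontal axis) for the 36 tested members, grouped by arm. Points are estimates of edgeR, bars are standard errors, and the dotted line is the median of all genes tested at -0.03. DDIT4 has the highest value at 2.30 and ERO1B the lowest at -0.62.

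The arms did not move evenly. Beside the counts below, 28.2% of protein-coding genes with a mean of at least 10 CPM were higher and 17.8% lower. The ATF4 arm had 8 higher and 1 lower of 12 tested, with a median log2FC of 1.05 and a range from -0.42 to 2.30. In the XBP1 arm 5 of 7 were higher and 0 lower, with a median of 0.78. The ATF6 arm had 5 higher and 1 lower of 10 tested and a median of 0.33, and its highest value was 0.87. Among the sensors 2 of 4 were higher. Of the ER oxidases and WFS1, 1 was higher and 1 lower of 3. The assignment to arms was made from general knowledge, and several genes, among them HERPUD1, DNAJC3 and CRELD2, answer to more than one arm.

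The sensors in the ER membrane differed from each other. ERN1, which encodes the kinase and nuclease IRE1, had 98.4, 85.9 and 91.2 CPM in the control libraries and 132 and 129 CPM in the co-cultured libraries. The groups did not overlap, and the log2FC was 0.51 (SE 0.08, edgeR adjusted p = 0.00173). ATF6 had 102, 113 and 111 CPM in control and 140 and 140 CPM in co-cultured cells, a log2FC of 0.36 (SE 0.08, edgeR adjusted p = 0.00722). Over 13 alternatives its adjusted p ran from 0.00022 to 0.0749, and it was 0.0735 without co-cultured replicate 1 and 0.0749 without co-cultured replicate 2, with log2FCs of 0.38 and 0.37. EIF2AK3, the PERK kinase, had 62.9, 60.9 and 56.6 CPM in control and 64.5 and 65.9 CPM in co-cultured cells, and its log2FC of 0.12 did not pass the test (edgeR adjusted p = 0.297). EIF2AK4, the GCN2 kinase, had 31.6, 29.9 and 30.0 CPM in control and 29.2 and 29.3 CPM in co-cultured cells (log2FC -0.06, edgeR adjusted p = 0.653). The mRNA of IRE1 was thus 1.42-fold and that of ATF6 1.29-fold the control level. Of the eIF2 kinases outside the members, EIF2AK1, which senses heme, was lower (log2FC -0.22, edgeR adjusted p = 0.0483), and EIF2AK2, which senses double-stranded RNA, was not called (log2FC 0.21, edgeR adjusted p = 0.0712).

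The transcription factors of the ATF4 arm split into those that rose, ATF4 itself, and ATF5, which fell. ATF4 had 517, 469 and 458 CPM in control and 538 and 563 CPM in co-cultured libraries. The groups did not overlap, but the log2FC was 0.19 (SE 0.09) and did not pass the test (edgeR adjusted p = 0.112). Over the alternatives its adjusted p ran from 0.0016 to 0.481, and it passed without control replicate 1, at a log2FC of 0.25. ATF5, a related factor whose mRNA is also translated more when eIF2 is phosphorylated, was the most abundant member by CPM, with 1130, 989 and 1063 CPM in control. It had 797 and 785 CPM in the co-cultured libraries, below every control library, a log2FC of -0.42 (SE 0.09, edgeR adjusted p = 0.00641). With either co-cultured library left out its adjusted p was 0.0733 and 0.0888, in a range from 5.18e-05 to 0.0888 over the alternatives, and its log2FC was -0.43 and -0.41.

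DDIT3, which encodes the factor CHOP that promotes cell death under lasting stress, had 20.2, 21.7 and 23.1 CPM in control and 50.01 and 49.7 CPM in co-cultured cells. The libraries within each group lay close together and the groups were far apart, with a log2FC of 1.20 (SE 0.09, edgeR adjusted p = 5.81e-05). DDIT3 lies on chromosome 12 from 57516588 to 57521737 and overlaps the tRNA synthetase gene MARS by 982 bases on the other strand. It also shares 2769 bases on its own strand with the annotated gene AC022506.1, listed at 0, and reads that fall on both are counted for neither. CEBPB, which encodes a leucine zipper factor that pairs with ATF4 and CHOP, went from 57.4, 52.5 and 49.5 CPM to 97.1 and 102 CPM, a log2FC of 0.90 (SE 0.09, edgeR adjusted p = 0.000134). NUPR1, a small chromatin protein induced by many stresses, had 32.3, 19.5 and 20.4 CPM in control and 65.8 and 52.1 CPM in co-cultured libraries. Control replicate 1 was the highest of its group for NUPR1, and the log2FC of 1.29 (SE 0.20, edgeR adjusted p = 0.0014) was 1.57 without it.

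PPP1R15A and TRIB3, which feed back on the ATF4 arm, both rose. PPP1R15A encodes GADD34, the subunit that brings a phosphatase to eIF2 and so restores translation. It had 53.6, 50.9 and 46.2 CPM in control and 144 and 140 CPM in co-cultured libraries, a log2FC of 1.50 (SE 0.08, edgeR adjusted p = 2.08e-05). TRIB3, a pseudokinase that restrains ATF4 and CHOP, went from 114, 95.4 and 101 CPM to 276 and 297 CPM, a log2FC of 1.47 (SE 0.09, edgeR adjusted p = 2.68e-05). For both genes every co-cultured library was above every control library. They were the members with the smallest p together with XBP1.

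Among the other targets of ATF4, DDIT4 had the largest change of all members. It encodes REDD1, an inhibitor of mTORC1 that is also a known target of HIF-1 and of glucocorticoids. DDIT4 had 121, 124 and 176 CPM in control and 757 and 623 CPM in co-cultured libraries, a log2FC of 2.30 (SE 0.16, edgeR adjusted p = 4.12e-05), or 4.91-fold. Its control value was highest in control replicate 3, and leaving out each library in turn gave log2FCs from 2.16 to 2.50. CHAC1, an enzyme that degrades glutathione and a narrow marker of ATF4 activity, had 14.0, 9.57 and 9.57 CPM in control and 26.0 and 28.7 CPM in co-cultured libraries (log2FC 1.30, SE 0.17, edgeR adjusted p = 0.000603). SESN3, a sestrin that restrains mTORC1, had 21.5, 16.2 and 16.1 CPM in control and 24.2 and 23.7 CPM in co-cultured libraries, a log2FC of 0.42 with an edgeR adjusted p of 0.0499 that ran from 0.000161 to 0.205 over the alternatives. That call was lost when either co-cultured library, control replicate 2 or control replicate 3 was left out, with log2FCs of 0.35 to 0.43. It was also lost with DESeq2, a filter of at least 10 counts in every library, upper-quartile scaling and a replicate block. The call of SESN3 held in 5 of the 13 alternatives. Not every target passed the test. ASNS, asparagine synthetase, had 10.0, 9.95 and 8.19 CPM in control and 11.5 and 10.3 CPM in co-cultured cells (log2FC 0.22, edgeR adjusted p = 0.299). ASNS shares 20425 bases on its own strand with the annotated gene AC079781.5. Reads that fall on both are counted for neither, so the counts of ASNS may be incomplete and its level is uncertain. VLDLR, a lipoprotein receptor induced by the ATF4 arm and by hypoxia, had 113 to 140 CPM in control and 133 and 134 CPM in co-cultured cells, and the groups overlapped (log2FC 0.10, edgeR adjusted p = 0.457). Without control replicate 1, the highest control library for VLDLR, its log2FC was 0.21 and passed, in a range of adjusted p from 0.00735 to 0.834.

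**Figure D2:**
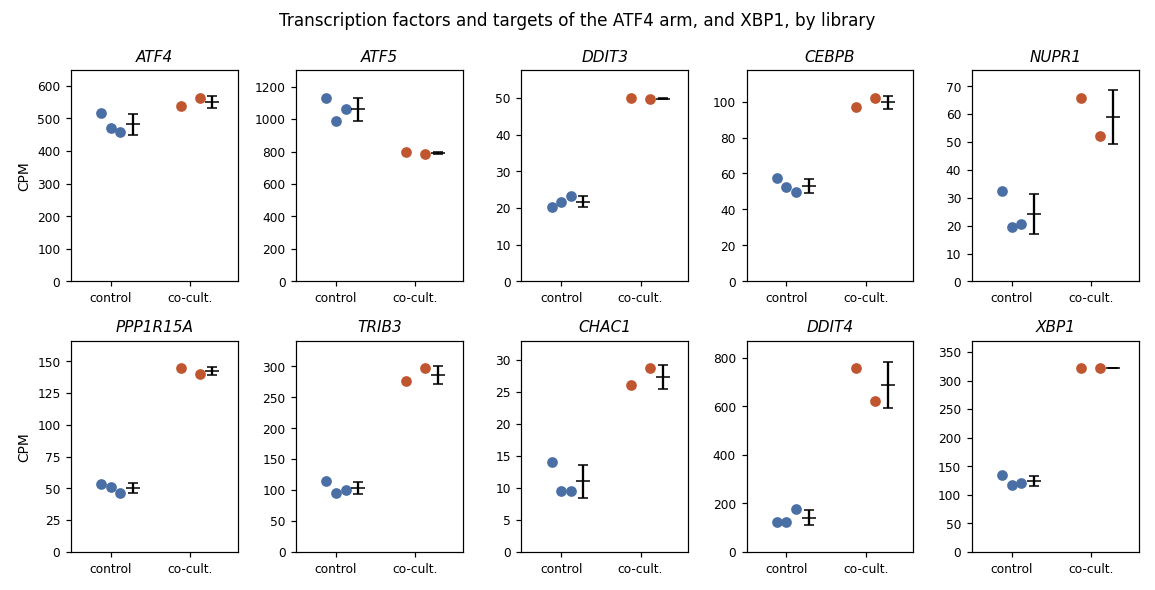
Expression in CPM (vertical axes, each starting at 0) of factors and targets of the ATF4 arm and of XBP1 in the 3 control (blue) and 2 co-cultured (orange) libraries. Points are libraries and black bars the mean ± SD. ATF4 moves little, ATF5 is lower at 797 and 785 CPM, and for each of the other genes both orange points lie above all blue ones.

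The other genes of the ATF4 program, taken from lists of general knowledge, were mostly higher. Of 28 further targets tested, 26 were higher and 1 lower, with a median log2FC of 1.06, and 16 were upregulated DEGs. Among protein-coding genes with a mean of at least 10 CPM, 28.2% were higher and 17.8% lower. Of all genes tested, 5.44% were upregulated DEGs. Those with the smallest p were SHMT2, the mitochondrial enzyme that makes glycine from serine, with 145 to 155 CPM in control and 356 and 367 CPM in co-cultured libraries, CEBPG, a leucine zipper partner of ATF4, with 160 to 172 CPM and then 369 and 388 CPM, and GDF15, a secreted stress hormone. GDF15 had 7.28, 5.09 and 5.99 CPM in control and 28.9 and 28.4 CPM in co-cultured libraries, a log2FC of 2.22 (SE 0.15, edgeR adjusted p = 3.53e-05). KLHL24 was the member of this list that fell, by 1.12 on the log2 scale. Of 12 aminoacyl-tRNA synthetases under ATF4, which charge tRNAs with amino acids, 11 were higher and 0 lower, with a median log2FC of 0.73. SARS went from 171 to 189 CPM in control to 348 and 374 CPM, and TARS and AARS had log2FCs of 0.94 and 0.83. The level of the list of further targets summed to 5549, 4389 and 4449 CPM in the control libraries and to 9179 and 9450 CPM in the co-cultured libraries, so that control replicate 1 was the highest of its group here as well.

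The machinery around eIF2 itself was called about as often as other expressed genes. Of 19 genes of eIF2, its exchange factor eIF2B, its kinases and its phosphatases, 5 (26.3%) were higher and 4 (21.1%) lower, against 28.2% and 17.8% of protein-coding genes with at least 10 CPM, and the median log2FC was 0.02. PPP1CB, a catalytic subunit of the phosphatase that GADD34 recruits, went from 293 to 323 CPM in control to 557 and 519 CPM, a log2FC of 0.82 (SE 0.08, edgeR adjusted p = 0.000182). PPP1R15B, the constitutive partner of that phosphatase, went from 226 to 259 CPM in control to 381 and 389 CPM (log2FC 0.68, edgeR adjusted p = 0.00046). EIF2B2, a subunit of eIF2B, had a log2FC of 0.71, and EIF2B5, another subunit, fell by 0.44 on the log2 scale.

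XBP1, the factor of the IRE1 arm, had one of the clearest changes. It had 134, 117 and 121 CPM in control and 321 and 321 CPM in the co-cultured libraries, a log2FC of 1.37 (SE 0.08, edgeR adjusted p = 2.23e-05), or 2.59-fold. Spliced and unspliced XBP1 mRNA were counted together. Its promoter on chromosome 22 carries the element to which ATF6 binds together with the factor NF-Y, the ER stress response element (ERSE). The bases before the start of the gene are shown here 5′ to 3′ on the minus strand, at chr22:28800598-28800769 (GRCh38.p14, RefSeq), with the fixed letters of the element in capitals.
XBP1: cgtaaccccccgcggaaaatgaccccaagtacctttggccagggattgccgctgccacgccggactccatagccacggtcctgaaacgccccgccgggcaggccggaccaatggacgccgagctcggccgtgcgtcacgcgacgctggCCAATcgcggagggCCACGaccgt

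The other tested members of this arm had smaller log2FCs than XBP1. EDEM1, a lectin that hands misfolded glycoproteins to ERAD, had 24.1, 24.2 and 24.3 CPM in control and 45.5 and 41.4 CPM in co-cultured libraries, a log2FC of 0.84 (SE 0.09, edgeR adjusted p = 0.000237). DNAJB9, the co-chaperone ERdj4, went from 40.4, 36.3 and 36.5 CPM to 69.0 and 65.5 CPM, a log2FC of 0.83 (SE 0.09, edgeR adjusted p = 0.000193). SEL1L, the scaffold of the ERAD ubiquitin ligase, rose from 189 to 229 CPM in control to 357 and 345 CPM, with a log2FC of 0.78. SYVN1, the ligase HRD1 that SEL1L holds, had 36.8, 39.0 and 34.8 CPM in control and 40.5 and 34.9 CPM in co-cultured cells, and its groups overlapped (log2FC 0.03, edgeR adjusted p = 0.818). SYVN1 shares 694 bases with FAU on the same strand. DNAJC3, the co-chaperone P58IPK, which also inhibits PERK, went from 91.5 to 114 CPM in control to 165 and 150 CPM (log2FC 0.64, edgeR adjusted p = 0.00161). DERL1, a channel protein of ERAD, had 74.0 to 84.9 CPM in control and 91.4 and 87.8 CPM in co-cultured libraries, and its log2FC of 0.20 did not pass (edgeR adjusted p = 0.105). Over the alternatives the adjusted p of DERL1 ran from 0.00188, without control replicate 1, to 0.361.

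The chaperones of the ATF6 arm changed less, and not in the same direction. HSPA5, which encodes BiP, the main Hsp70 of the ER, had 292, 279 and 258 CPM in control and 413 and 389 CPM in co-cultured libraries, a log2FC of 0.54 (SE 0.08, edgeR adjusted p = 0.00144). HSP90B1, which encodes GRP94, the Hsp90 of the ER, had 601, 549 and 545 CPM in control and 464 and 424 CPM in co-cultured libraries. Both co-cultured libraries were below every control library, and the log2FC was -0.35 (SE 0.09, edgeR adjusted p = 0.0145). Over the alternatives that adjusted p ran from 0.00063 to 0.186, and it was 0.0696 and 0.186 with co-cultured replicate 1 or 2 left out, at log2FCs of -0.41 and -0.28. The ratio of HSPA5 to HSP90B1 in CPM was 0.485, 0.507 and 0.474 in control replicates 1 to 3, and 0.889 and 0.918 after co-culture. CALR, calreticulin, a lectin chaperone, had 575, 599 and 587 CPM in control and 594 and 559 CPM in co-cultured cells, with overlapping groups and a log2FC of -0.03 (SE 0.08, edgeR adjusted p = 0.822).

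**Figure D3:**
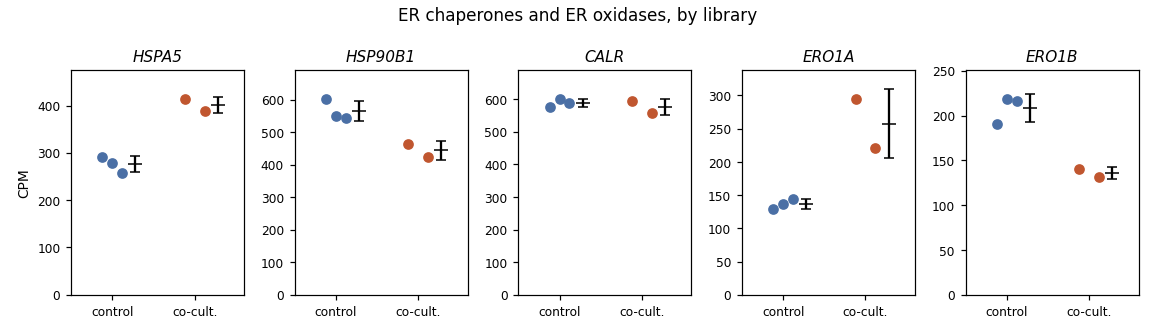
Expression in CPM (vertical axes, each starting at 0) of ER chaperones and ER oxidases in the 3 control (blue) and 2 co-cultured (orange) libraries, with the mean ± SD in black. HSPA5 and ERO1A are higher in both co-cultured libraries, HSP90B1 and ERO1B are lower in both, and the groups overlap for CALR.

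HERPUD1 and SDF2L1 had the largest changes of this arm. HERPUD1, a membrane protein of ERAD, went from 201, 195 and 194 CPM to 324 and 343 CPM, a log2FC of 0.76 (SE 0.07, edgeR adjusted p = 0.000158). SDF2L1, a partner of BiP and its co-chaperones, had 5.37, 4.15 and 5.12 CPM in control and 9.35 and 8.52 CPM in co-cultured libraries (log2FC 0.87, SE 0.17, edgeR adjusted p = 0.00502). Its adjusted p ran from 0.000133 to 0.063 over the alternatives, the latter without co-cultured replicate 1, at a log2FC of 0.81. The disulfide isomerases PDIA4 and PDIA6 had log2FCs of 0.34 and 0.35 (edgeR adjusted p = 0.0149 and 0.0136), and both lost the call when either co-cultured library was left out, with adjusted p-values of up to 0.144 and 0.102 and log2FCs of 0.29 to 0.39. MANF, a protein that stabilises BiP with its clients, had 16.3 to 19.8 CPM in control and 21.5 and 23.2 CPM in co-cultured libraries (log2FC 0.33, edgeR adjusted p = 0.0623), and CRELD2 had 24.0 to 30.9 CPM and then 32.8 and 31.8 CPM (log2FC 0.26, edgeR adjusted p = 0.123). Neither passed the test with all libraries. MANF passed with counts taken without regard to strand too, at an adjusted p of 0.0423. Without control replicate 1, the highest control library for both, their log2FCs were 0.42 and 0.37 and passed, in a range of adjusted p from 0.00292 to 0.303 for MANF and from 0.00216 to 0.43 for CRELD2.

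The ER oxidases, which pass electrons from the disulfide isomerases to oxygen, moved in opposite directions. ERO1A, known to be induced by hypoxia and by CHOP, had 129, 137 and 145 CPM in control and 294 and 221 CPM in co-cultured libraries, a log2FC of 0.91 (SE 0.12, edgeR adjusted p = 0.000542). ERO1B, a paralog prominent in secretory cells, had 191, 218 and 217 CPM in control and 140 and 131 CPM in co-cultured libraries, a log2FC of -0.62 (SE 0.09, edgeR adjusted p = 0.0010). ERO1A was 0.678, 0.627 and 0.668 times as abundant as ERO1B in CPM in the control libraries, and 2.09 and 1.69 times in the co-cultured libraries. Per kilobase of exon, the mean level of ERO1B was 38.9 CPM in control against 18.1 for ERO1A, and in co-cultured cells it was 25.3 against 34.1, so the order of the paralogs was exchanged. The log2FC of ERO1A ran from 0.70 to 1.11 as each library was left out, the lowest value being without co-cultured replicate 1. WFS1, an ER membrane protein that restrains ATF6, had 9.62, 7.30 and 5.58 CPM in control and 10.4 and 9.84 CPM in co-cultured libraries (log2FC 0.44, SE 0.21, edgeR adjusted p = 0.146). Without control replicate 1 it passed at a log2FC of 0.66, in a range of adjusted p from 0.00315 to 0.42.

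Some members, most of them in the ATF6 arm, have known promoter elements of these pathways. The arms were assigned from general knowledge of the targets of ATF4, ATF6 and XBP1. The shares of members with an element are therefore a description and not independent evidence. Windows of 250 bases before to 50 bases after each RefSeq start were present for 36 of the 39 members, and not for NUPR1, DERL1 and DERL3. The windows were searched on both strands for the ERSE, spelled CCAAT and CCACG with 9 bases of any kind between them, for the ERSE-II, spelled ATTGG and CCACG with 1 base of any kind between them, for the UPR element (UPRE) TGACGTGG and for the C/EBP-ATF response element (CARE) TGATGNAA, where N is any base. The ERSE was found in windows of 8 of the 36 members, against 0.0916% of 27305 genes with a window. The ERSE-II was found in 3 members against 0.0696% of all genes, the UPRE in 1 against 0.927%, and the CARE in 3 against 4.46%. The UPRE was found in HYOU1, where it overlaps an ERSE-II. Of the 8 members with an ERSE, 6 belong to the ATF6 arm, and the others are XBP1 and ERO1B. Each ERSE match is written in the direction in which the element reads, with its fixed letters in capitals, to show that the same element stands before genes that rose, genes that fell and genes that were not called.
HSPA5 (rose, chr9:125241391-125241409, minus strand): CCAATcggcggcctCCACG
PDIA6 (rose, chr2:10812853-10812871, minus strand): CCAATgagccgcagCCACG
XBP1 (rose, chr22:28800603-28800621, minus strand): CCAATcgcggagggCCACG
HSP90B1, upstream match (fell, chr12:103930216-103930234, plus strand): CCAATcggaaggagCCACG
HSP90B1, downstream match (fell, chr12:103930321-103930339, minus strand): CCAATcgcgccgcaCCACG
ERO1B (fell, chr1:236282183-236282201, plus strand): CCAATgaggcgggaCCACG
CALR (not called, chr19:12938384-12938402, minus strand): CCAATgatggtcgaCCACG
CANX (not called, chr5:179698778-179698796, plus strand): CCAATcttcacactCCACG
CRELD2 (not called, chr22:49918554-49918572, minus strand): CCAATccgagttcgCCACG

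Of these 8 genes, 3 were higher, 2 lower and 3 not called, and no test was made of the element against the direction. HSP90B1, with 2 exact matches, fell, and XBP1 and HSPA5, with 1 exact match each, rose. Copies of the ERSE with other letters were not searched, so these numbers do not count all such elements of a gene. The match lies at -52 to -34 bases from the start in XBP1, at -66 to -48 in HSPA5 and at -86 to -68 in PDIA6. In CRELD2, which was not called, it lies at -80 to -62. In HSP90B1, which fell, the matches begin at -89 and -194. It is farther away in CALR, at -225 to -207, and in ERO1B, at -243 to -225. In CANX, which was not called, it begins at -9, -151 or -189, depending on the start used. Both tested members with an ERSE-II rose, HERPUD1 at -117 and SDF2L1 at -188. The CARE was found in CHAC1, in HERPUD1 and in ASNS, of which CHAC1 and HERPUD1 rose and ASNS was not called. In this window the letters of the CARE were not found for DDIT3, TRIB3, PPP1R15A or DDIT4, and elements farther from the start or with other letters were not searched. The stretch before HSPA5, at chr9:125241344-125241543 on the minus strand, and that before HERPUD1, at chr16:56931942-56932047 on the plus strand and ending where the annotated gene begins, are given with the matched letters in capitals. The stretch of HSPA5 holds 1 exact match to the ERSE as spelled here, and that of HERPUD1 holds a CARE on the opposite strand followed by the ERSE-II.
HSPA5: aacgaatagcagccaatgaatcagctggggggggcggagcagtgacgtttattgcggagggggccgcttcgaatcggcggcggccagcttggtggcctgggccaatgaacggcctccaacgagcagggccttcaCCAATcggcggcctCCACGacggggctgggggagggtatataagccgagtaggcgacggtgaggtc
HERPUD1: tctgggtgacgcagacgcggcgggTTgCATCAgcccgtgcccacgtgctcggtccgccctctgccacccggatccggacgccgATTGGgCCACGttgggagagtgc

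**Figure D4:**
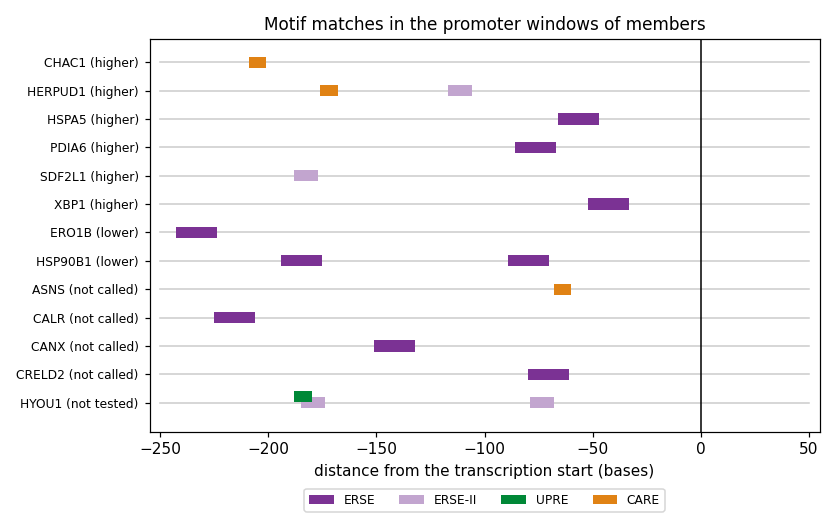
Position of motif matches (coloured boxes) relative to the transcription start (horizontal axis, in bases) in the promoter windows of members with a match, with each gene's call in brackets. For CANX, whose match lies in windows of several starts, 1 of them is drawn. ERSE matches stand before genes called higher, lower and not called.

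Further lists of ER genes had medians between 0.20 and 0.38. Of 24 other folding genes of the ER, 12 (50%) were higher and 1 (4.17%) lower, with a median log2FC of 0.24. HSPA13 and P4HB, an Hsp70 and the classical protein disulfide isomerase, had log2FCs of 0.63 and 0.70, and TMX1, a membrane-bound thioredoxin, fell by 0.45 on the log2 scale. Of 19 other ERAD genes tested, 6 (31.6%) were higher and 1 (5.26%) lower, with a median of 0.20. That share higher was near the 28.2% of protein-coding genes with a mean of at least 10 CPM, of which 17.8% were lower. UBE2J1 and NPLOC4 had log2FCs of 0.38 and 0.44, while MAN1B1, a mannosidase, fell by 0.33. Of 18 genes of the translocon and of signal peptide processing, 10 (55.6%) were higher and 1 (5.56%) lower (median 0.38). The member of that list with the smallest p was SEC61G, a subunit of the translocation channel, which went from 60.1 to 69.8 CPM in control to 137 and 112 CPM, and SEC63 and TRAM1 had log2FCs of 0.39 and 0.46.

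Of 14 further factors of the response tested, 4 (28.6%) were higher and 3 (21.4%) lower, with a median log2FC of 0.05. They were called about as often as protein-coding genes with a mean of at least 10 CPM, at 28.2% higher and 17.8% lower. CREB3L1, a membrane-bound relative of ATF6, had 3.99, 3.59 and 4.15 CPM in control and 17.3 and 15.9 CPM in co-cultured libraries, a log2FC of 2.09 (SE 0.14, edgeR adjusted p = 4.05e-05). Its relative CREB3L2 had a log2FC of 0.85 and NFE2L1, a regulator of proteasome genes, of 0.87. A heat shock list, mainly of chaperones of the cytosol, which answer to HSF1 and not to the ER, was tested for contrast. The list also holds the mitochondrial chaperones HSPD1 and HSPE1 and the factors HSF1 and HSF2. Of 17 tested, 6 (35.3%) were higher and 2 (11.8%) lower, and the median log2FC was -0.03. HSPA4 and STIP1 had log2FCs of 0.97 and 0.52, and HSP90AB1, a cytosolic Hsp90, fell by 0.43, from 843 to 959 CPM in control to 672 and 636 CPM.

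**Figure D5:**
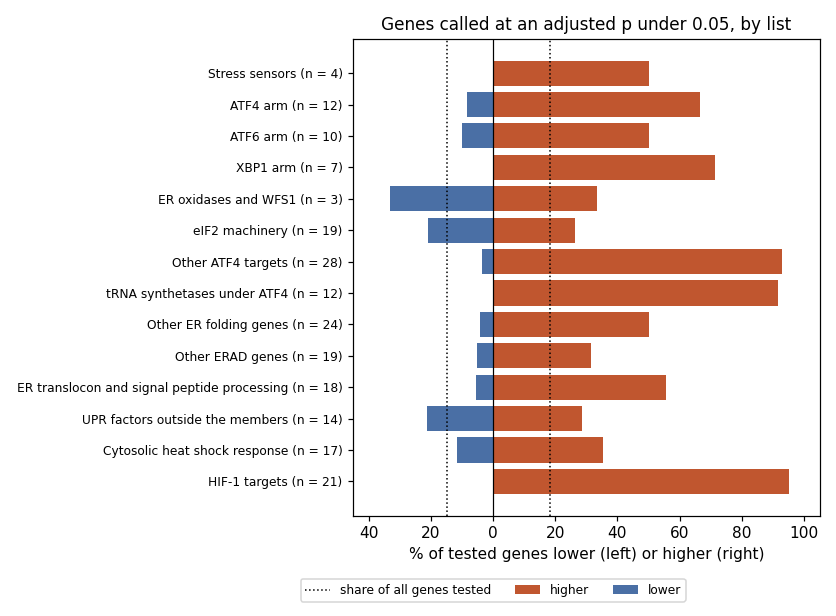
Share of tested genes that were higher (orange, to the right) or lower (blue, to the left) in co-cultured cells at an adjusted p under 0.05, in %, for each arm of the members and each further list, with the number of genes tested. Dotted lines mark the shares over all genes tested, 18.4% higher and 15% lower. The lists of further ATF4 targets and tRNA synthetases reach 92.9% and 91.7% higher, and the cytosolic heat shock list 35.3%.

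Targets of HIF-1, the factor of the response to low oxygen, moved with the members. Of 21 tested, 20 were higher and 0 lower, against 28.2% and 17.8% of protein-coding genes with a mean of at least 10 CPM. The median log2FC was 1.58, and VEGFA, EGLN1 and PGK1 had the smallest p. The list summed to 2163, 2595 and 3015 CPM in the control libraries and to 7974 and 5921 CPM in the co-cultured libraries. Control replicate 1 was lowest, control replicate 3 was the highest control library, and co-cultured replicate 1 was above co-cultured replicate 2. DDIT4 and ERO1A, which are targets of HIF-1 too, had the same order of libraries. So did DDIT3 of the ATF4 arm and EDEM1 of the XBP1 arm, but some of their values were nearly tied. EDEM1 had 24.1, 24.2 and 24.3 CPM in control, and DDIT3 had 50.01 and 49.7 CPM in the co-cultured libraries. TRIB3 and CHAC1 had another order, with control replicate 1 highest in its group and co-cultured replicate 2 above co-cultured replicate 1. The part of HIF-1 and of oxygen supply in the values of the members was not tested, and it cannot be told apart from co-culture in this design.

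Levels were compared between members per kilobase of exon. In control cells the most abundant were ATF5, with a mean of 359 CPM per kilobase, CALR with 216, ATF4 with 192 and HSP90B1 with 120, and HSPA5 followed at 70.7 and DDIT4 at 68.2. In co-cultured cells DDIT4 had 335 CPM per kilobase, above ATF5 with 268, ATF4 with 219 and CALR with 212, and XBP1 reached 106. The sensors stayed low, at 2.55 to 13.8 CPM per kilobase in control and 2.45 to 17.7 in co-cultured cells, with EIF2AK4 the lowest of the 4 and ATF6 the highest in both groups.

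The members that could not be tested were SESN2, HYOU1 and DERL3. SESN2, a sestrin induced by ATF4 and p53, had 2 counts in co-cultured replicate 1 and 0 in the other libraries, where a count of 0 allows up to 3 counts, or 0.157 to 0.194 CPM by counting error alone. HYOU1, an ER chaperone of the Hsp110 kind, and DERL3, a derlin, are listed at 0 in every library. Reads that map to more than one place were not counted, and the count files hold 6057 entries outside the primary assembly, so a 0 for these genes may hide reads shared with a copy and gives no level. CANX, calnexin, had a second entry of this kind. Its primary entry had 241, 272 and 288 counts in control and 354 and 246 counts in co-cultured libraries (log2FC 0.33, edgeR adjusted p = 0.0843), and the second entry had 754, 638 and 733 and then 906 and 624 counts (log2FC 0.27, edgeR adjusted p = 0.0755). With both entries summed, an alternative chosen after seeing the data, the log2FC was 0.29 (edgeR adjusted p = 0.0423, in a range from 0.0423 to 0.48 over the alternatives), and counts without regard to strand passed as well, at 0.0489. Its level per length is uncertain.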

How the data were processed

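RNA-Seq libraries of NCI-H209 were deposited by the authors as raw read counts per gene, tallied by strand as STAR does. The submitters' processing notes name CASAVA 1.8, STAR 2.6.1b, DESeq2 and GRCh38, with no roles. The kit was directional and rRNA-depleted. The authors' comparison table (means, fold changes and p-values) gave gene symbols alone.

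Counts on the expected strand were filtered with filterByExpr, scaled by TMM and tested in edgeR 4.0.16 (R 4.3.3; quasi-likelihood, p adjusted by Benjamini-Hochberg across 20360 genes). SE is the size of the log2FC over the root of F. Positions and exon lengths are from GENCODE release 29. No permutation of 3 and 2 libraries can reach a p under 0.1. Floors cover counting error only.

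The members, and 11 further lists written from general knowledge, were chosen with earlier results of these data known. Every member is given. Up to 3 called genes with the smallest p were named from each further list. KLHL24, EIF2B5, EIF2AK1, EIF2AK2, MARS, INSM1, CDH5, PLVAP and MMRN1 were named after their values were seen. On simulated counts of 19825 genes for this comparison, 68 of 98 genes changed by 1 on the log2 scale and 87 of 95 changed by 2 were recovered, with 22 unchanged genes called. Alternatives were DESeq2 1.42.0, other scalings and filters, unstranded counts, a replicate block and each library left out. Plots were drawn with matplotlib 3.10.9.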

Additional observations from a re-analysis of the deposited data

Results flagged for a closer look

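Reads on the strand opposite to DDIT3, which the main comparison does not use, were more abundant in co-cultured cells. They numbered 285, 166 and 228 in control replicates 1 to 3, and 396 and 393 after co-culture. Scaled to the total count, the lowest co-cultured library had 1.41 times the level of the highest control library, and the difference was not tested. These reads were 33.7% of those on both strands of the gene, which overlaps MARS by 982 bases and MBD6 by 1028 bases on the other strand. MARS had a log2FC of 0.88. With counts taken without regard to strand, DDIT3 had a log2FC of 1.30, against 1.20 on its own strand.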

How the results depend on the processing

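The members called higher (21) numbered 16 to 27 over all alternatives, and those upregulated as DEGs 7 or 8. No call changed sign, and the 7 upregulated members kept theirs throughout. The members called lower (3) numbered 1 under the replicate block and 1 to 3 as each library was left out. The median log2FC of the members (0.43) was 0.35 with upper-quartile scaling, and 0.37 to 0.57 as each library was left out. Called genes of the further lists (120) numbered 71 to 145 as each library was left out, the lowest without co-cultured replicate 2 and the highest without control replicate 1. Upper-quartile scaling placed the median of all genes at -0.11 and split their calls into 3076 higher and 3929 lower, against 3750 and 3059. Over all genes, 6809 were called, 4824 with the block, 2734 and 3023 without co-cultured replicate 1 or 2 and 9897 without control replicate 1. Where 1 co-cultured library is left, it is assumed to vary like the controls. Same-numbered libraries did not deviate together (correlations -0.22 and -0.14). The deviations of the 2 co-cultured libraries mirror each other, so these values are not independent and cannot exclude a pairing. Under the replicate block ATF5, SESN3, HSP90B1, PDIA4 and PDIA6 lost their call. SESN2, HYOU1 and DERL3 could not be tested. Reads left uncounted because they match several places may affect HYOU1, DERL3 and CANX, and the size of this effect was not tested. The causes of these shifts were not tested.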
